A study of Mus musculus with 51 samples.

Results

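The genes of the mitochondrial ribosomal proteins were described in skeletal muscle of mice that lack the clock factor BMAL1, the hypoxia regulator VHL, or both, in muscle. A gene was taken when its symbol in both deposited count tables was Mrpl or Mrps followed by a number, with an added letter allowed and pseudogene symbols ending in -ps left out. This gave 77 of the 48294 gene symbols that the tables share, 48 of them Mrpl (named for the large subunit) and 29 Mrps (named for the small subunit). All 51 libraries were used, each made from the whole gastrocnemius, a calf muscle, of 1 animal. They were QuantSeq libraries, which count 1 tag near the 3′ end of each transcript, so a gene's level is a number of tags and does not grow with its length.

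The groups follow the genotype, diet and batch given by the labels. Batch 1 held animals on high-fat diet, 7 labelled Control (Bmal1fx/fx) and 5 Bmal1KO, and animals on regular chow, 4 Control (Bmal1fx/fx) and 3 Bmal1KO. Batch 2 was on high-fat diet throughout and held 8 Control (Bmal1fx/fx) and 4 Bmal1KO, 6 Control (Vhlfx/fx) and 4 VhlKO, and 6 Control (Bmal1fx/fx;Vhlfx/fx) and 4 Bmal1KO;VhlKO, the double knockout. The series describes its Bmal1 knockout as specific to skeletal muscle. Neither the labels nor the series text gives the Cre line, the deleted exons, or the animals' age, sex and hour of harvest. Each knockout was compared with the floxed controls of its own line, and diet was compared within a genotype. The study's title places it on the link between BMAL1 and the hypoxia-inducible factors (HIF) in the glucose metabolism of obesity.

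The mitochondrial ribosome makes the few proteins that mitochondrial DNA encodes, all of them core parts of the respiratory chain and the ATP synthase. Its RNAs come from mitochondrial DNA, but its proteins come from nuclear genes, so each one must be made in the cytosol and imported. Some of these proteins have a counterpart in bacterial ribosomes and others occur only in mitochondria. BMAL1 pairs with CLOCK to drive daily transcription at E-boxes. VHL marks HIF proteins for breakdown, and HIF is known to lower mitochondrial activity when oxygen is short. Skeletal muscle is rich in mitochondria, more so in its slow than in its fast fibres.

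Of the 77 genes, 30 code for large-subunit proteins with a bacterial counterpart, 20 for large-subunit proteins found only in mitochondria, 16 for small-subunit proteins with a bacterial counterpart and 10 for mitochondrial small-subunit proteins. Mrps36 is left over, since its product is now known as a part of the 2-oxoglutarate dehydrogenase complex. Mrps30 and Mrps18a keep small-subunit symbols although their products sit in the large subunit, and they were counted there. In GENCODE M21 on GRCm38 the genes lie on 17 chromosomes.

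Promoter windows of 6 members are shown because the results below turn on these genes: Mrps12 was higher in every high-fat knockout comparison, Mrps23 and Mrpl33 were higher after Bmal1 loss in both batches, and Mrpl42, Mrpl16 and Mrpl39 were among the lowest after Vhl loss. The sequences are RefSeq's for GRCm38.p6, run 5′ to 3′ on the strand of the gene, and cover 250 bases before to 50 bases after a start site. Capitals mark the letters searched on both strands: GCGCATG (the core bound by NRF1), CCGGAAG (the core of ETS factors such as GABPA), AAGATGG (YY1), CACGTG (the E-box) and GACGTG (a hypoxia response core). The E-box and the hypoxia core differ in their first base, so no stretch matches both. NRF1, ETS factors and YY1 are known regulators of nuclear genes for mitochondrial proteins.
Mrps12: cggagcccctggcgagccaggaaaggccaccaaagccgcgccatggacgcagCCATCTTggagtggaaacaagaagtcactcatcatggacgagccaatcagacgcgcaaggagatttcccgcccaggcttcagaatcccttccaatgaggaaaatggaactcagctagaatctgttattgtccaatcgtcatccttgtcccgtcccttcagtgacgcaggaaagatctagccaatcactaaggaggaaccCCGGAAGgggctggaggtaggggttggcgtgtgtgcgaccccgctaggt
Mrps23: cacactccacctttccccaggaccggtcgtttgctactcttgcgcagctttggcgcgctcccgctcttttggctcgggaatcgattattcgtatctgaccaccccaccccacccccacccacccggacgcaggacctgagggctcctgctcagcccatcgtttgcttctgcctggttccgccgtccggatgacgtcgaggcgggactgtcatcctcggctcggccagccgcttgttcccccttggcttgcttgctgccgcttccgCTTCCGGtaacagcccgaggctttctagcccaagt
Mrpl33: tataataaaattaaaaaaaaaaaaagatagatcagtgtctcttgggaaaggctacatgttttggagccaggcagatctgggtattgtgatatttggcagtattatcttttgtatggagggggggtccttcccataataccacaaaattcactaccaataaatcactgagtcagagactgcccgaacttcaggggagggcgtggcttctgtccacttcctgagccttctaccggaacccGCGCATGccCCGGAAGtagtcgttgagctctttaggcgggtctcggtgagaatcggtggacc
Mrpl42: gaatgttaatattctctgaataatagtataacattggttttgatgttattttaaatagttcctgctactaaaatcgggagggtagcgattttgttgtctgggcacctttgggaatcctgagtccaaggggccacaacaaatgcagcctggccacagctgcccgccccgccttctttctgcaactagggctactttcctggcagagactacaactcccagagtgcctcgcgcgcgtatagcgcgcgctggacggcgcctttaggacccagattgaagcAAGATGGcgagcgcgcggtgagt
Mrpl16: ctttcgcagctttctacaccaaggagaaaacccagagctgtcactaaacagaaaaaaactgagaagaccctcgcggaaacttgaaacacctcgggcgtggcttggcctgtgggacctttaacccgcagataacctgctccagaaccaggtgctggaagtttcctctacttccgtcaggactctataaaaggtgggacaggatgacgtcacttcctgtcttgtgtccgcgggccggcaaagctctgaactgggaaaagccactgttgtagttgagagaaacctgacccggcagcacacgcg
Mrpl39: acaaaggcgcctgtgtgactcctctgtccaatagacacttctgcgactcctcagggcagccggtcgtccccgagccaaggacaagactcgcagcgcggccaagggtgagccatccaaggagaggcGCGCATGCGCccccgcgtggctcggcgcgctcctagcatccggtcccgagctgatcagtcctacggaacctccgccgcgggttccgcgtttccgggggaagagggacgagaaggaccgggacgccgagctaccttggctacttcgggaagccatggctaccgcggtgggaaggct
The window of Mrps12 is chr7:28741772-28742071 on the minus strand and holds the YY1 core, read on the other strand, and the ETS core just after the start site. That of Mrps23 is chr11:88204138-88204437 on the plus strand, with the ETS core on the other strand. The Mrpl33 window, chr5:31613701-31614000 on the plus strand, holds the NRF1 core and the ETS core close together at the start site. Mrpl42 (chr10:95501900-95502199, minus strand) has the YY1 core after the start site. Mrpl16 (chr19:11770165-11770464, plus strand) holds none of the letters searched. Mrpl39 (chr16:84735195-84735494, minus strand) holds the NRF1 core once on each strand, and both matches overlap in 1 stretch.

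RefSeq windows could be matched to 68 of the 77 members. The ETS core was found in 25 of these 68 genes (36.8%), against 19.4% of the 9651 genes tested that had a window. The YY1 core was found in 13 (19.1% against 8.33%) and the NRF1 core in 8 (11.8% against 7.86%). The E-box was found in 5, namely Mrpl2, Mrpl20, Mrpl36, Mrpl37 and Mrps18c (7.35% against 11.9%), and the hypoxia core in 7 (10.3% against 10.7%). Counted over windows, of which a gene can have several, the shares were 33.8% of 74 member windows and 8.86% of 32817 windows of any gene for the ETS core, 17.6% and 6.34% for YY1, 10.8% and 3.9% for NRF1, 9.46% and 7.15% for the E-box, and 10.8% and 6.37% for the hypoxia core. A match describes these letters in this window and is no measured binding site.

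Depth was 8.723 M to 14.71 M counts per library in batch 1 and 6.945 M to 14.72 M in batch 2 (M, mega). All values below are CPM, a gene's counts brought to a common library depth, scaled within each batch by TMM (trimmed mean of M values, which centres the bulk of genes), so levels of different batches were normalized separately. Differences are log2 fold changes ± standard error from edgeR's quasi-likelihood test over all genes of a batch. A gene is called higher or lower at a Benjamini-Hochberg adjusted p under 0.05. The share of all genes called was counted with TMM scaling only, so counts of members without scaling have no such share beside them. Arntl, the gene of BMAL1, was looked at first. It was at 15.02 ± 2.648 CPM (SD, n = 7) in high-fat controls of batch 1 and 7.4 ± 1.83 (n = 5) in Bmal1 knockouts, a difference of -1.02 ± 0.22 (adjusted p = 0.00255), and fell in the double knockout too (-0.48 ± 0.13, adjusted p = 0.00213). In the Bmal1 knockout of batch 2 it was at 9.24 ± 0.971 (n = 4) against 10.89 ± 1.621 (n = 8), and the difference of -0.24 ± 0.13 did not pass (adjusted p = 0.239). On chow the difference was -0.91 ± 0.28 (adjusted p = 0.0821). Vhl was lower in the Vhl knockout (-0.85 ± 0.30, adjusted p = 0.0217) and in the double knockout (-0.78 ± 0.26, adjusted p = 0.018). A 3′ tag may lie outside the deleted part, so neither gene can check the labels.

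The 9 genes listed as fast-fibre markers were Acta1, Ckm, Myh4, Myh1, Tnnt3, Tnni2, Actn3, Pvalb and Atp2a1. They summed to 73840 to 154600 CPM in the group means, and 5 slow-fibre markers to 554.2 to 1318. Acta1 and Ckm are not particular to fast fibres, so these sums do not measure shares of fibre types. A whole muscle also holds vessels, blood and other cells. Fewer cells of a type and less RNA per cell cannot be told apart in these samples.

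Levels differed over a wide range among the 77 members. Mrpl42, a mitochondrial protein of the large subunit, was highest in the high-fat Bmal1fx/fx controls of both batches (122.8 and 176.9 CPM). The order below it differed between the batches: Mrpl14 (75.28), Mrpl34 (74.86) and Mrpl18 (74.37) followed in batch 1, and Mrpl18 (109.8), Mrpl51 (108.6) and Mrpl12 (100.6) in batch 2. Averaged over all libraries, the lowest were Mrpl53 (0.219) and Mrps18b (0.7329). These are levels of tags, and a gene whose 3′ end is poorly captured would read low. Summed over all members the family reached 2289 ± 125.1 CPM (SD, n = 7) in the high-fat controls of batch 1 and 2937 ± 129.7 (n = 8) in the Bmal1fx/fx controls of batch 2. Each library held 20375 to 48465 tags of these genes. Mrpl53 had 0 to 9 tags per library and was the 1 member that did not pass the filter on low counts in either batch, so 76 members were tested in every comparison. Mrps18b passed with 0 to 23 tags per library. Within the last 500 bases of each gene, 3 members share the position with an exon of another gene on the same strand (Mrpl51, Mrpl53 and Mrps34), and 8 with an exon on the other strand. Their counts are less certain than those of the other 66.

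In muscle without Bmal1 on high-fat diet, a minority of the genes of the mitochondrial ribosome were called higher than in controls, by small amounts, and none was called lower. In batch 1, 6 of the 76 tested members were called higher, among 9% of all genes called in either direction, 3.82% higher and 5.18% lower. The 6 were Mrps12, Mrps25, Mrps23, Mrpl10, Mrpl57 and Mrpl33, and they cover both subunits and both kinds of protein. Every knockout library lay above every control for 4 members (2.51% of all genes), namely Mrps12, Mrpl10, Mrps23 and Mrpl28, and below for none (3.58%). The median difference over the 76 tested members was 0.09, against 0.00 over all 12762 genes, and 56 of the 76 were positive. Without any scaling, 26 members were called higher and the median of all genes itself moved to 0.16.

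Mrps12 lies in the decoding centre of the small subunit. It ranged from 27.12 to 39.27 CPM (median 32.05) in the 7 controls and read 49.69, 42.04, 43.98, 48.32 and 49.45 in the 5 knockouts. Every knockout was above every control, and the difference was 0.51 ± 0.10 (adjusted p = 0.000329).
Mrpl10, at the base of the stalk that recruits translation factors to the large subunit, ranged from 13.26 to 18.58 CPM (median 17.68) in controls and read 25.39, 23.33, 22.31, 22.59 and 23.27 in knockouts. The groups did not overlap here either (0.44 ± 0.11, adjusted p = 0.00624).
Mrps23, a mitochondrial protein of the small subunit, ranged from 45.56 to 52.62 CPM (median 49.36) and read 67.25, 57.77, 57.62, 56.79 and 61.51. It too was higher in every knockout than in any control (0.29 ± 0.09, adjusted p = 0.028).
Mrps25, another mitochondrial small-subunit protein, ranged from 16.15 to 28.11 CPM (median 23.76) and read 31.54, 28.01, 36.81, 26.83 and 33.27 (0.46 ± 0.12, adjusted p = 0.00987). The lowest knockouts lay within the range of the controls. Its call was lost without the knockout at 36.81 CPM (adjusted p = 0.0515).
Mrpl57 ranged from 29.03 to 37.47 CPM (median 32.04) and read 49.2, 36.41, 38.31, 38.36 and 41.97 (0.34 ± 0.09, adjusted p = 0.0143). Mrpl33 ranged from 53.07 to 69.56 CPM (median 63.54) and read 91.25, 81.1, 68.42, 70.28 and 71.5 (0.33 ± 0.10, adjusted p = 0.023). In both, the lowest knockout fell inside the control range, and 1 knockout, animal 1, was the highest. Without animal 1 of the knockouts 3 members were called, and Mrpl57 was not among them (adjusted p = 0.0855).

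Batch 2 repeated the comparison in other animals. There 18 of 76 members were called higher and none lower, among 13.9% of all genes called, 6.94% higher and 6.96% lower. Every knockout library lay above every control for 8 members (4.05% of all genes) and below for none (4.74%). The median was 0.13, against -0.01 over all 13093 genes, and 68 of 76 members were positive. Of the 6 members called in batch 1, 5 were called again, which is 5 of the 18 of batch 2. The same overlap between batches was not counted over all genes. Mrpl57 was not called again: it stood at 42.86 ± 2.851 CPM (SD, n = 8) in controls and 43.58 ± 2.64 (n = 4) in knockouts (0.03 ± 0.07). By role, the 18 were 8 of 30 large-subunit proteins with a bacterial counterpart, 3 of 19 of the mitochondrial large-subunit proteins, 4 of 16 small-subunit proteins with a counterpart and 3 of 10 mitochondrial small-subunit proteins. The count fell to 10 or 11 when any of controls 10 and 12 or knockouts 6, 7 and 8 was left out.
Mrps34, a mitochondrial small-subunit protein, had the smallest p. It ranged from 38.96 to 51.28 CPM in 8 controls (median 42.42) and read 62.25, 52.26, 55.65 and 61.87 in 4 knockouts, all above the controls (0.41 ± 0.07, adjusted p = 3.09e-05). Its 3′ end overlaps Nme3 on the same strand, so part of its tags may belong there.
Mrps23 ranged from 50.63 to 65.32 CPM (median 56.41) and read 82.61, 67.4, 71.77 and 70.63 (0.36 ± 0.07, adjusted p = 0.000226). Mrps12 ranged from 38.56 to 53.48 CPM (median 42.9) and read 58.74, 54.34, 53.81 and 54.13 (0.35 ± 0.07, adjusted p = 0.000258). Neither gene overlapped between the groups.
Mrpl33 ranged from 91.91 to 114.9 CPM and read 140.9, 116.1, 115.3 and 124.7 (0.32 ± 0.07, adjusted p = 0.00063), again with no overlap. Mrps25 ranged from 23.8 to 34.6 CPM and read 39.23, 38.39, 34.27 and 37.63 (0.35 ± 0.07, adjusted p = 0.000456), with 1 knockout inside the range of the controls. Mrpl16, which lies near the site of peptide bond formation in the large subunit, ranged from 35.33 to 41.26 CPM and read 48.17, 45.05, 45.61 and 48.95 (0.29 ± 0.07, adjusted p = 0.00283). Its groups did not overlap.

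**Figure D1:**
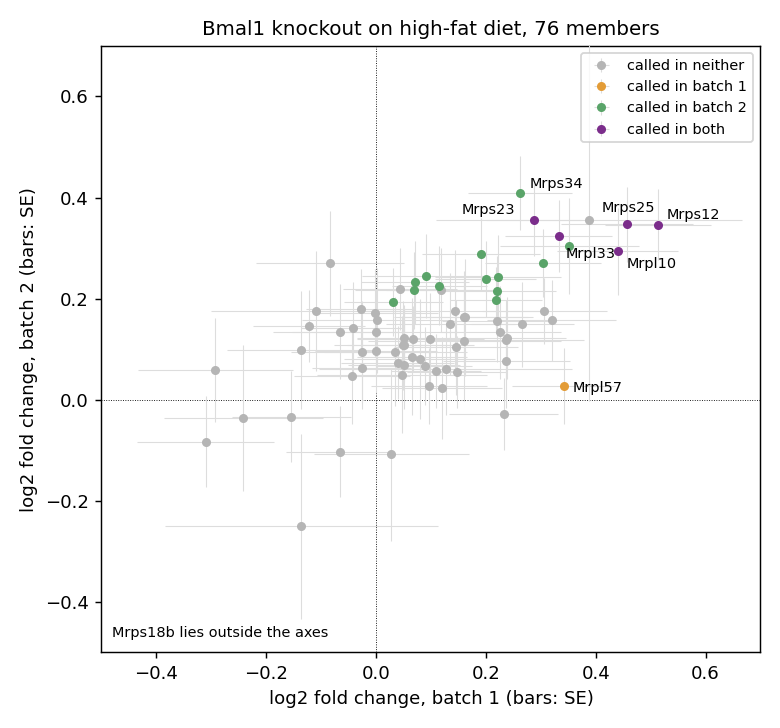
Log2 fold change of the tested members in Bmal1 knockouts against controls on high-fat diet, batch 1 on the x axis and batch 2 on the y axis, with standard errors as bars; colours give the batches in which a member was called, and Mrps18b lies outside the axes. Mrps12 (0.51 and 0.35), Mrps25, Mrpl10, Mrpl33 and Mrps23 lie high on both axes, while Mrps34 stands out on the y axis and Mrpl57 (0.34 and 0.03) on the x axis.

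With both batches in 1 fit and a batch term, 22 members were called higher and 1 lower (22.4% of all 12565 genes were called, 11.1% higher and 11.3% lower). The 1 lower was Mrps18b (-0.89 ± 0.32, adjusted p = 0.037), which had at most 23 tags in any library. Without scaling 51 were called, all higher. In the fits of each batch, TMM factors averaged 1.03 in knockouts and 0.9256 in controls of batch 1, and 1.012 and 0.9574 in batch 2. Leaving out factors that are larger in knockouts raises the difference of every gene. No member differed between the batches in its response by edgeR's quasi-likelihood test, with 5 members at an unadjusted p under 0.05; 0.00796% of all genes, a single gene, passed there.
Beside these calls, 2 of 9 fast-fibre markers were called lower in each batch, with sums of 109500 to 134000 CPM in controls and 90520 to 113900 in knockouts of batch 1 and 123200 to 136500 and 111900 to 126400 in batch 2. None of the 3 erythroid, 5 endothelial or 5 slow-fibre markers was called, and 1 of 5 macrophage markers was lower and 1 of 2 tendon markers higher in batch 2. The 3 keratinocyte markers, none called, summed to 60.44 and 19.93 CPM in knockouts 6 and 7 of batch 2, 4.359 and 5.767 in the other knockouts and 4.652 to 18.92 in the controls. Ighm, an immunoglobulin gene, rose from 46.42 to 272.3 CPM in batch 1 and from 85.96 to 329.8 in batch 2, while the lymphocyte markers Cd79a, Cd79b, Ms4a1 and Cd3e stayed under 1 CPM in every high-fat library of batch 1. The part of these transcripts in the result was not tested.

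On regular chow, no member was called in the Bmal1 knockout, among 3.84% of all genes called (1.55% higher and 2.29% lower). By edgeR's quasi-likelihood test 7 members had an unadjusted p under 0.05, and DESeq2 called 0 as well. The median was 0.08, against 0.00 for all genes, and 57 of 76 members were positive. Smallest p belonged to Mrpl48, Mrpl21 and Mrps23.
Mrpl48, a mitochondrial large-subunit protein, read 27.88, 30.88, 30.69 and 33.03 CPM in the 4 controls and 24.58, 21.46 and 22.16 in the 3 knockouts (-0.43 ± 0.15, adjusted p = 0.105). Mrpl21, a large-subunit protein with a bacterial counterpart, read 29.67, 30.16, 31.4 and 28.52 in controls and 24.48, 21.93 and 24.76 in knockouts (-0.34 ± 0.12, adjusted p = 0.137). Neither pair of groups overlapped, and both values lay below the controls.
Mrps23 read 52.49, 37.2, 47.27 and 49.77 CPM in controls and 56.61, 54.82 and 62.69 in knockouts (0.32 ± 0.11, adjusted p = 0.137). Mrps12 read 35.13, 26.72, 34.67 and 36.03 in controls and 42.99, 42.26 and 40.45 in knockouts (0.34 ± 0.13, adjusted p = 0.167). For these genes every knockout lay above every control, as on high-fat diet, yet the difference did not pass. In all, every knockout lay above every control for 7 members, where 5.85% of all genes did, and below for 3, where 5.88% did. Without scaling Mrps23 (0.40, adjusted p = 0.015) and Mrps12 (0.42, adjusted p = 0.0357) were called. A single chow control and a single chow knockout carried B-cell transcripts (Cd79b at 8.959 and 10.48 CPM, under 1 CPM in the other chow libraries), and leaving both out changed no call. The difference between the diets in the response to Bmal1 loss was itself tested: no member passed (2 at an unadjusted p under 0.05), and 0% of all genes did.

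High-fat diet against chow gave no called member in controls (2.37% of all genes were called, 1.51% higher and 0.854% lower) or in Bmal1 knockouts (3.28%, 1.72% higher and 1.57% lower). These comparisons share their groups with the knockout comparisons of batch 1. In each, 6 members had an unadjusted p under 0.05 by edgeR's quasi-likelihood test, and the medians were 0.04 and 0.08. The median of controls turned to -0.13, with 3 members called lower, when no scaling was used. TMM factors averaged 0.9256 in the high-fat controls and 1.039 in the chow controls. Leaving them out lowers the difference of every gene here, so this turn is not particular to the members. Mrpl34, a small large-subunit protein with a bacterial counterpart, came nearest: it read 54.78, 50, 59.94 and 70.44 CPM in chow controls and 64.6 to 87.33 (median 75.07) in high-fat controls (0.35 ± 0.11, adjusted p = 0.0783). The highest chow animal lay inside the high-fat range. Without that animal, chow control 4, Mrpl34 passed (0.45, adjusted p = 0.0347). Mrpl40 and Mrpl28 came next in controls, and Mrpl54, Mrpl48 and Mrpl28 had the smallest p in Bmal1 knockouts. These were higher on high-fat diet and stayed uncalled whichever library was left out.

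After loss of Vhl most of the family was lower relative to the bulk of genes. Of 76 tested members 50 were called lower and 1 higher, among 37.2% of all genes called, 17.7% higher and 19.5% lower. The median was -0.32, against 0.01 over all genes, and 71 of 76 members were negative. This is relative to other genes: without any scaling the median of all genes moved to 0.35 and that of the members to 0.02, and 14 members were then called higher and 4 lower. Every knockout library lay below every control for 18 members, where 8.46% of all genes did so, and above every control for 2 (Mrps12 and Mrps18a), where 8.04% did.
Lower calls fell in every role. They took in 23 of 30 large-subunit proteins with a bacterial counterpart, 13 of 19 mitochondrial large-subunit proteins, 9 of 16 small-subunit proteins with a counterpart and 5 of 10 mitochondrial small-subunit proteins. The member median of the large subunit was -0.33 and that of the small subunit -0.30.
Mrpl42, the most abundant member, ranged from 132.4 to 189.1 CPM in the 6 Vhlfx/fx controls (median 153.3) and read 83.09, 119.3, 90.06 and 93.15 in the 4 knockouts. All knockouts lay below all controls (-0.70 ± 0.08, adjusted p = 2.95e-09).
Mrpl16 ranged from 26.69 to 39.53 CPM and read 24.83, 23.21, 19.09 and 20.86 (-0.62 ± 0.08, adjusted p = 1.8e-08). Mrpl39, a mitochondrial large-subunit protein related to threonyl-tRNA synthetase, ranged from 11.43 to 16.81 CPM (median 13.54) and read 7.312, 9.11, 6.466 and 7.016 (-0.86 ± 0.12, adjusted p = 7.6e-08). These groups did not overlap either.
Mrpl12, the stalk protein of the large subunit, ranged from 66.04 to 102.3 CPM and read 44.44, 70.67, 52.82 and 57.05 (-0.59 ± 0.08, adjusted p = 7.66e-08). Here 1 knockout lay inside the range of the controls. Each of these 4 genes was still called lower without scaling (-0.36 for Mrpl42, -0.28 for Mrpl16, -0.51 for Mrpl39 and -0.24 for Mrpl12).
The single member called higher was Mrps12. It ranged from 26.6 to 41.82 CPM in controls (median 36.35) and read 52.15, 63.11, 64.9 and 55.67 in knockouts (0.76 ± 0.08, adjusted p = 2.15e-11), with no overlap. Mrps23 and Mrpl33, called higher after Bmal1 loss, were called lower here with TMM scaling (-0.22 and -0.21), which turned to 0.13 and 0.14, not called, without scaling.

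**Figure D2:**
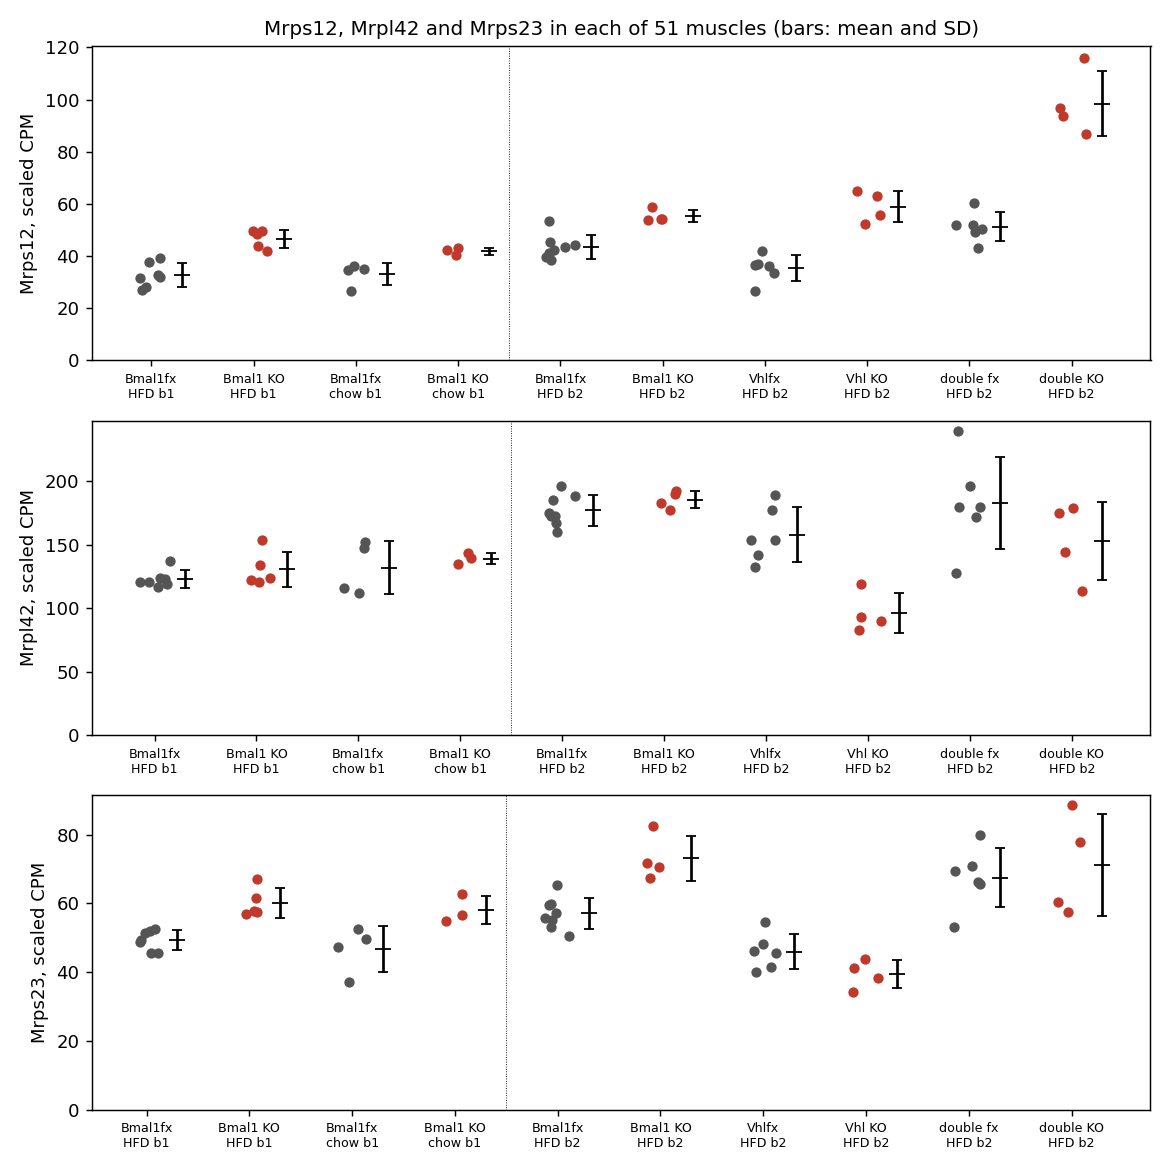
Scaled CPM of Mrps12, Mrpl42 and Mrps23 in each of the 51 libraries by group, with mean and SD as bars and batches normalized separately. Mrps12 lies above its controls in every knockout group, reaching 116.1 in the double knockout, Mrpl42 is lowest in the Vhl knockout (83.09 to 119.3), and Mrps23 is above its controls in the Bmal1 knockouts.

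Other transcripts moved with the Vhl result. The 3 erythroid markers, all above 0, summed to 827.9 ± 248.4 CPM (521.9 to 1251) in controls and 4228 ± 277.3 (3995 to 4555) in Vhl knockouts, and all 3 were called higher. The 5 endothelial markers summed to 80.34 to 106.8 CPM in controls and 191 to 217.4 in knockouts, all 5 higher. Of the fast-fibre markers 8 of 9 were lower, and their sum went from 103600 to 119600 CPM in controls to 65040 to 87900 in knockouts. Of the slow-fibre markers 3 of 5 and of the macrophage markers 3 of 5 were higher, and 2 of 5 adipocyte markers were lower. The slow-fibre sums varied widely between knockouts, at 2045, 389.4, 681.1 and 2158 CPM, against 515.9 to 957.3 in controls. Ighm was lower (-0.77 ± 0.26, adjusted p = 0.0217), as was 1 of 2 satellite cell markers, and 1 of 3 fibroblast and 1 of 2 tendon markers were higher. The part of these transcripts in the result was not tested.

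In the double knockout 27 of 76 members were called lower and 4 higher, among 35.4% of all genes called, 18.1% lower and 17.4% higher. The median was -0.15 against 0.01 over all genes, with 54 of 76 negative. Without scaling this turned: the median of members was 0.20 below a median of all genes of 0.37, and 31 members were called higher and 3 lower. Of the 27 lower, 24 were also among the 50 of 76 called lower in the Vhl knockout. The same overlap over all genes was not counted. By role, the lower calls were 12 of 30, 6 of 19, 6 of 16 and 3 of 10 in the same order as before. Every knockout library lay below every control for 7 members (9.08% of all genes) and above every control for 1, Mrps12 (8.91%).
Mrpl3, which reaches into the peptidyl transferase centre, ranged from 27.03 to 36.38 CPM in the 6 controls and read 20.8, 18.62, 20.5 and 19.8 in the 4 double knockouts (-0.73 ± 0.10, adjusted p = 1.57e-07). Mrpl15, a large-subunit protein with a bacterial counterpart, ranged from 64.74 to 76.15 CPM and read 54.43, 51.68, 43.89 and 47.47 (-0.53 ± 0.08, adjusted p = 4.25e-07). Mrpl34 ranged from 69.88 to 95.97 CPM and read 55.64, 54.57, 53.49 and 63.12 (-0.55 ± 0.09, adjusted p = 3.25e-06). In all 3, every double knockout lay below every control, and without scaling they were still called lower (-0.37, -0.18 and -0.19).
Mrpl12 ranged from 86.29 to 139.6 CPM and read 88.06, 75.4, 88.9 and 85.57 (-0.41 ± 0.08, adjusted p = 4.23e-05). Its groups overlapped, and without scaling the difference of -0.06 was not called (adjusted p = 0.596).
Mrps12 ranged from 43.1 to 60.4 CPM (median 51.25) and read 93.86, 86.88, 116.1 and 96.79. The double knockouts were far above their controls (0.94 ± 0.07, adjusted p = 8.17e-15).
Mrpl54, a mitochondrial large-subunit protein, ranged from 64.38 to 89.42 CPM and read 93.59, 86.19, 95.15 and 89.99 (0.24 ± 0.07, adjusted p = 0.00732). Its groups overlapped. It was also called higher in the Bmal1 knockout of batch 2 (0.27 ± 0.07, adjusted p = 0.0032). Mrpl52 (0.34 ± 0.12, adjusted p = 0.0304) and Mrps34 (0.20 ± 0.08, adjusted p = 0.0411) completed the higher calls. Their groups overlapped, and each lost its call in 6 of the 10 fits that left out 1 library, at up to adjusted p = 0.128 and 0.234.
Other markers moved here too. Erythroid sums were 751.4 to 1251 CPM in controls and 2547 to 4646 in double knockouts (3 of 3 higher), endothelial sums 100.3 to 152.9 and 190.8 to 283.8 (5 of 5 higher), and fast-fibre sums 133200 to 174100 and 97950 to 117400 (9 of 9 lower). Of the adipocyte markers 3 of 5 were lower and none of the slow-fibre or macrophage markers was called, with slow-fibre sums of 835.1 to 1431 and 843.2 to 1025. Ighm was higher (1.33 ± 0.25, adjusted p = 9.23e-05), as were 1 of 2 satellite cell and 1 of 3 fibroblast markers. Keratinocyte markers summed to 47.29 CPM in double knockout 4 and at most 6.078 in the other double knockouts. Their part in the result was not tested.

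**Figure D3:**
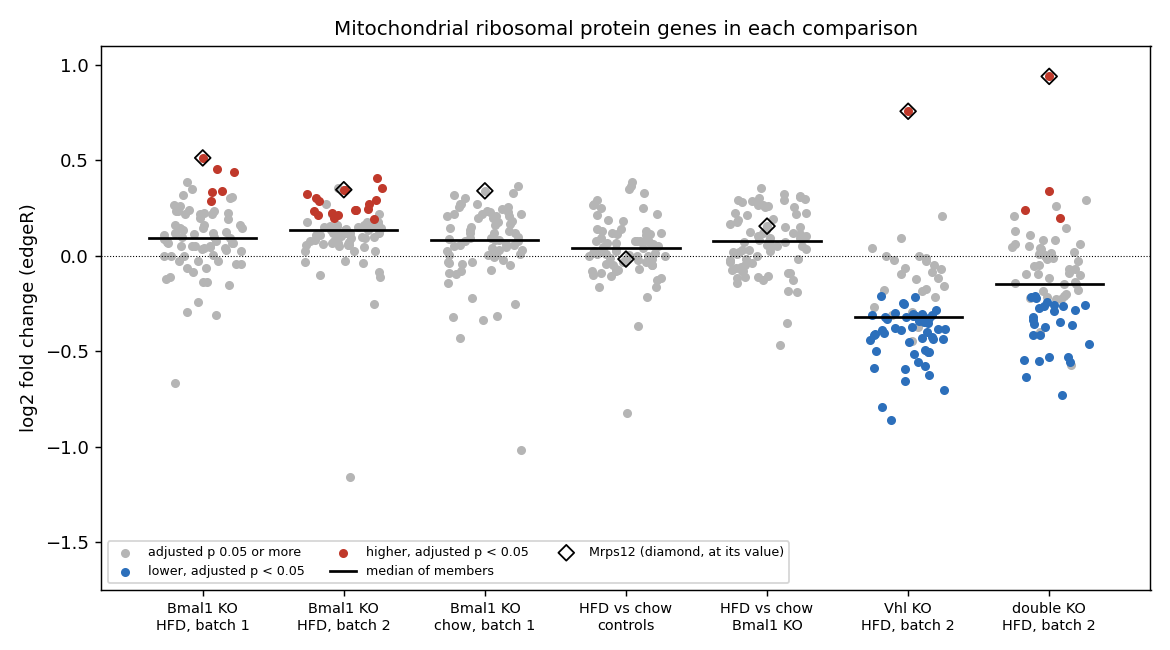
Log2 fold change of the 76 tested members (points) in each of the 7 comparisons, with called members in colour, the median as a bar and Mrps12 as a diamond. Members lie mostly above 0 in the Bmal1 knockouts (medians 0.09 and 0.13 on high-fat diet) and mostly below 0 in the Vhl (-0.32) and double (-0.15) knockouts with TMM scaling, medians that turned to 0.02 and 0.20 without scaling.

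The knockout effects were then compared with each other, as differences between fold changes of separate lines with separate controls. The Vhl effect lay below the Bmal1 effect for 51 members and above it for 1, Mrps12 (0.41 ± 0.10, adjusted p = 0.00243), among 25.3% of all genes (12.2% higher and 13.1% lower). Without scaling 13 members lay below and 3 above. Mrpl16 (-0.91 ± 0.11, adjusted p = 4.47e-09), Mrpl42 (-0.77 ± 0.11, adjusted p = 6.62e-07) and Mrpl37, a mitochondrial large-subunit protein (-0.73 ± 0.10), had the smallest p.
The double effect lay below the Bmal1 effect for 27 members and above it for 1, again Mrps12 (0.59 ± 0.10, adjusted p = 3.18e-05), among 16.7% of all genes (7.69% higher and 9.04% lower). Without scaling 7 lay below and 1 above. Named by the smallest p beside it were Mrpl34 (-0.78 ± 0.12, adjusted p = 5.46e-06) and Mrpl2, which lies next to the peptidyl transferase centre (-0.56 ± 0.10, adjusted p = 2.5e-05).
The double effect lay above the Vhl effect for 10 members and below it for 1, among 8.56% of all genes (4.51% higher and 4.06% lower). Without scaling 5 lay above and 0 below. Mrpl39 differed most clearly (0.77 ± 0.16, adjusted p = 0.00134): in double knockouts it read 13.64, 12.09, 13.79 and 15.03 CPM, inside its controls' range of 10.45 to 19.57. Mrps15, a small-subunit protein with a bacterial counterpart, was 70.2 ± 4.44 CPM (SD, n = 6) in Vhl controls and 52.76 ± 7.357 (n = 4) in Vhl knockouts, but 77.01 ± 12.12 (n = 6) and 76.69 ± 12.26 (n = 4) in the double line (difference 0.40 ± 0.10, adjusted p = 0.00721). Mrpl42 followed (0.45 ± 0.12, adjusted p = 0.00987). The 1 below was Mrps11, a small-subunit protein named after its values were seen (-0.55 ± 0.18, adjusted p = 0.0472). This count moved with single libraries: it was 3 without Vhl knockout 3 and 18 without Vhl knockout 2, and 5 to 7 without double-line control 6, double knockout 3 or 4, or Vhl knockout 1.

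Mrps12 was the only member called in 1 direction in 3 or more of the 7 knockout and diet comparisons, being higher in all 4 knockout comparisons on high-fat diet. These 4 calls held under every alternative run. The gene lies on the minus strand at chr7:28739641-28741820 (ENSMUSG00000045948) and starts head to head with Sars2, the mitochondrial seryl-tRNA synthetase. Sars2 was not called in any of them: its differences were -0.10 ± 0.22 and 0.03 ± 0.17 in the Bmal1 knockouts of batch 1 and 2, 0.33 ± 0.18 in the Vhl knockout (adjusted p = 0.151) and -0.11 ± 0.18 in the double knockout. Head-to-head partners were common in the family: 33 of the 77 members have a protein-coding gene starting on the other strand within 1000 bases. Mrpl46 and Mrps11, both members, form such a pair at chr7:78775236-78783531 and chr7:78783119-78792989. These partners were named after their values were seen. In the Bmal1 knockout of batch 2 Mrpl46 was called (0.30 ± 0.10, adjusted p = 0.0241) and Mrps11 was at 0.10 ± 0.12, while in the double knockout Mrps11 was called (-0.56 ± 0.13, adjusted p = 0.000586) and Mrpl46 was at -0.10 ± 0.10.

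**Figure D4:**
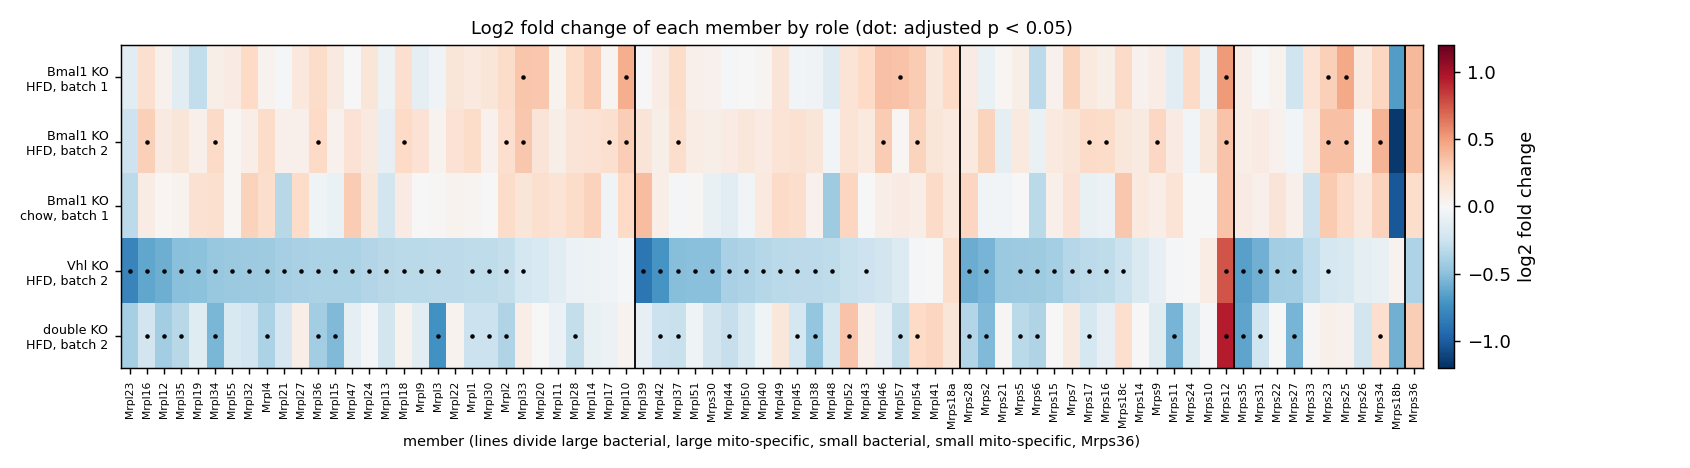
Log2 fold change of each tested member (columns, grouped by role and divided by lines) in the 5 knockout comparisons (rows), with a dot where the adjusted p was under 0.05. With TMM scaling lower values after Vhl loss run through all roles (median -0.32, or 0.02 without scaling), and Mrps12 is the dark column with 0.76 after Vhl loss and 0.94 in the double knockout.

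The balance of the subunits was described by the summed CPM of large-subunit members over that of small-subunit members, Mrps36 left out. It was 2.826 ± 0.05204 (2.765 to 2.912) in Vhl controls and 2.586 ± 0.07873 (2.5 to 2.684) in Vhl knockouts. In the double line it was 2.682 ± 0.02482 (2.659 to 2.717) in controls and 2.428 ± 0.0543 (2.363 to 2.495) in knockouts. The groups did not overlap in either line, whereas after Bmal1 loss they overlapped in both batches (2.545 to 2.81 against 2.612 to 2.792, and 2.635 to 2.752 against 2.592 to 2.87). Leaving out Mrps12, a step chosen after its values were seen, gave 2.917 to 3.065 in Vhl controls and 2.821 to 2.992 in Vhl knockouts, and 2.815 to 2.891 and 2.681 to 2.82 in the double line, so that both pairs overlapped. The summed level of the family was 2558 ± 279.2 CPM in Vhl controls and 2057 ± 223.9 in knockouts, and 3259 ± 429.3 and 3017 ± 344.1 in the double line, with overlapping ranges in both. After Bmal1 loss in batch 2 the sums were 2775 to 3114 CPM in controls and 3118 to 3464 in knockouts, which did not overlap, and in batch 1 they were 2129 to 2475 and 2362 to 2830.

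**Figure D5:**
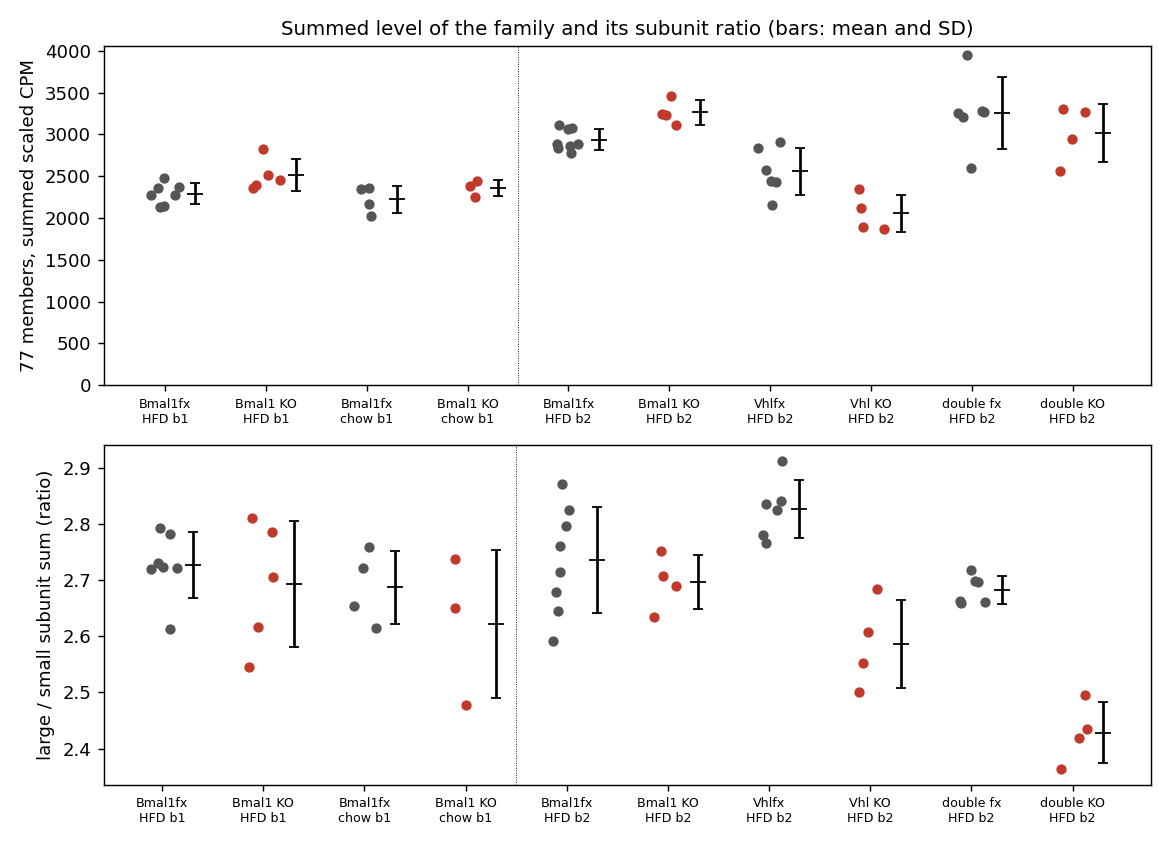
Summed scaled CPM of the 77 members (top) and the ratio of large- to small-subunit sums (bottom, axis not from 0) in each library by group, with mean and SD as bars. The ratio of Vhl knockouts (2.5 to 2.684) and double knockouts (2.363 to 2.495) lies below that of their controls, while the sums of these groups overlap with theirs.

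Mrps18a, Mrps18b and Mrps18c are related copies that serve different places in the ribosome. Mrps18c was called lower after Vhl loss (-0.25 ± 0.10, adjusted p = 0.0432), which turned to 0.09, not called, without scaling. With TMM it ranged from 18.85 to 28.79 CPM in controls and 17.04 to 23.36 in knockouts. Mrps18a lay above every control in that comparison (25.79 to 29.83 against 22.87 to 25.41 CPM), but the difference of 0.21 ± 0.09 did not pass with TMM scaling (adjusted p = 0.052). Without scaling it was called higher (0.56, adjusted p = 7.7e-07). Mrps36 was at 1.973 to 5.367 CPM in the group means and was called in no comparison. The symbols ending in -ps, left out by the rule, averaged at most 1.12 CPM (Mrpl23-ps1).

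Genes that work beside the mitochondrial ribosome were counted in the same fits. All their values are with TMM scaling, and their values in the fits without scaling were not looked at. Without scaling the median of all genes moved to 0.35 in the Vhl and 0.37 in the double knockout. Of 6 further ribosomal proteins under other symbols (Dap3, Ptcd3, Chchd1, Aurkaip1, Gadd45gip1 and Ict1), Aurkaip1 was higher in the Bmal1 knockout of batch 1 (0.36). In batch 2, 4 were higher: Gadd45gip1 (0.81), Ptcd3 (0.37), Aurkaip1 (0.28) and Ict1 (0.27). After Vhl loss Gadd45gip1 (-0.61), Ptcd3 (-0.37) and Aurkaip1 (-0.24) were lower.
Of 27 factors that assemble the ribosome or modify its RNA, none was called in the Bmal1 knockout of batch 1, 2 were higher in batch 2 (Ndufab1 and Fastkd2), and 16 and 13 were lower in the Vhl and double knockouts. Noa1, a GTPase of ribosome assembly, was at -1.10 ± 0.16 after Vhl loss (adjusted p = 3.02e-07), and C1qbp, a matrix protein that binds the ribosome's RNA, at -0.49 ± 0.08 (adjusted p = 8.33e-07) and, in the double knockout, -0.68 ± 0.08 (adjusted p = 2.84e-10).
Of 15 translation factors and RNA stability proteins, 8 were lower after Vhl loss, among them the elongation factor Gfm1 (-0.62 ± 0.08, adjusted p = 4.16e-08) and Lrpprc, which stabilises mitochondrial mRNA (-1.30 ± 0.21, adjusted p = 1.47e-05), and 5 in the double knockout. Of 20 genes for charging mitochondrial tRNAs, 11 and 8 were lower there, led by Qrsl1 (-1.10 ± 0.12, adjusted p = 3.63e-10, and -0.76 ± 0.11, adjusted p = 4.14e-07). Cars2, the mitochondrial cysteinyl-tRNA synthetase, was higher in both Bmal1 knockouts (0.83 ± 0.16, adjusted p = 0.000464, and 0.65 ± 0.13, adjusted p = 0.000232) and in the double knockout (0.61 ± 0.14, adjusted p = 0.000564).
Of 18 genes that transcribe mitochondrial DNA or regulate mitochondrial biogenesis, 7 and 8 were lower in the Vhl and double knockouts and none higher. Tfam, which packages and transcribes mitochondrial DNA, was at -0.59 ± 0.09 after Vhl loss (adjusted p = 9.44e-07), and Ppargc1a, the coactivator PGC-1alpha, at -1.71 ± 0.33 in the double knockout (adjusted p = 0.000147). Ppargc1a was also the 1 gene of this list called after Bmal1 loss in batch 1 (-0.73 ± 0.19, adjusted p = 0.0214), and none was called in batch 2.

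Transcripts of the respiratory chain come from both genomes. Of 78 nuclear genes of the respiratory chain and ATP synthase, 38 and 48 were higher after Bmal1 loss on high-fat diet in batch 1 and 2 (medians 0.27 and 0.23). After Vhl loss 61 were lower and 1 higher (median -0.36), and in the double knockout 29 were lower and 4 higher (median -0.11). Of the 13 mRNAs of mitochondrial DNA 8 passed the filter, and their medians were negative in all of these comparisons: -0.33 and -0.21 after Bmal1 loss (1 and 2 called lower), -0.52 after Vhl loss (5 lower) and -0.84 in the double knockout (7 lower). Set against the summed mitochondrial mRNAs, the family was at 0.9223 to 1.112% in Vhl controls and 1.235 to 1.632% in Vhl knockouts, and at 1.524 to 2.406% and 2.395 to 4.015% in the double line. In the first pair the groups did not overlap, and in the second 1 control lay just above the lowest knockout.
Ribosomal proteins of the cytosol, 79 of 82 tested, gave 1 higher and 0 lower and then 1 higher and 3 lower in the Bmal1 knockouts of batch 1 and 2. After Vhl loss 5 were higher and 23 lower (median -0.09), and in the double knockout 5 and 17 (median -0.05).

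The letters in the promoter windows were set beside the calls, over the 67 tested members with a window. Of the 5 members with an E-box, 3 were called higher after Bmal1 loss in batch 2 (Mrpl2, Mrpl36 and Mrpl37), where 16 of all 67 were, and none in batch 1. In the joint fit, which shares those animals, 5 of 5 were called higher, where 20 of 67 were. Of the 7 with the hypoxia core, 5 were lower after Vhl loss, where 43 of 67 were. The ETS core was held by 24 of the 67, and 14 of the 24 were lower after Vhl loss, where 43 of 67 were. Among members called higher after Bmal1 loss, 4 of 6 held it in batch 1, 7 of 16 in batch 2 and 7 of 20 in the joint fit. These counts are small and are given as a description only.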

How the data were processed

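RNA of whole gastrocnemius from 51 mice was made into QuantSeq 3′ libraries, per the labels' protocols. The authors deposited whole-number counts per gene symbol, 1 table per batch. The submitters' processing notes name FastQC 0.11.4, STAR 2.6.0, HTSeq, edgeR 3.26.8 and the builds mm10 and GRCm38.p4. For the counting, the annotation and the strand setting were not given in the sources used here. In batch 2, 27 symbols had turned into dates and were left out.

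From the deposited counts, each batch was fitted with all of its groups in edgeR 4.0.16 in R 4.3.3 (TMM scaling, filterByExpr with a minimum count of 10, robust quasi-likelihood test, Benjamini-Hochberg adjustment over all genes tested, threshold 0.05). The joint fit of the Bmal1 comparison had batch as a term. Standard errors are the fold change over the square root of F. The scripts were tested on simulated data. Labels give 1 animal per library, so p-values measure the spread between animals.

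The members and all gene lists were chosen with earlier results of these data known. Genes were named by rule: in each comparison the 4 higher and 4 lower members with the smallest p among those called, or the 3 with the smallest p where none was, the 4 most and 2 least abundant members, members called in 3 or more comparisons in 1 direction, the Mrps18 copies and Mrps36, up to 3 called members in each contrast between effects, and up to 4 called genes of each other list. Members outside this rule are named only to complete a count or a pair, after their values were seen. Alternatives were DESeq2 1.42.0, RLE scaling, no scaling, TMM without mitochondrial transcripts, no filter, the compared groups alone, replicate numbers as a block and each library left out. Promoter windows are RefSeq's on GRCm38.p6, and gene positions are from GENCODE M21.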

Additional observations from a re-analysis of the deposited data

Results flagged for a closer look

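A library stood apart from the others of its group in 20 of 297 tests by Dixon's criterion, and chance gives about 1 in 20. Each test took 1 measure or 1 named gene in 1 group of 4 to 10 libraries, so the tests share libraries. In the high-fat controls of batch 1, animal 1 was lowest for Mrpl10 (13.26 CPM) and Mrpl28 (20.6) and highest for Mrpl48 (44.95) and Mrpl12 (89.32). In the same group, animal 5 was highest for Mrpl42 (137.1) and animal 2 had the lowest ratio of large- to small-subunit sums (2.612, the next being 2.72). Animal 1 of the Bmal1 knockouts of that batch was highest for Mrpl28 (31.14), and chow control 2 was lowest for Mrps12 (26.72).

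In batch 2, control 11 (53.48 CPM) and Bmal1 knockout 8 (58.74) were highest for Mrps12 in their groups. Control 8 (37.19) and knockout 9 (39.65) were lowest for Mrpl57. Knockout 6 was highest for Mrpl21 (38.97) and knockout 9 for Mrps18a (32.71). Among Vhl controls, animal 6 was highest for Mrpl40 (18.67) and animal 5 for Mrps18b (1.269) and Mrps36 (5.709). Vhl knockout 4 had no tag of Mrpl53 (0 CPM). In the double line's controls, animal 4 was highest for Mrps36 (10.91) and for the share of the family against mitochondrial mRNA (2.406%).

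Effects of the knockouts differed by the test of the difference itself for several members. The double effect differed from the Bmal1 effect for Mrps12 (0.59), Mrpl34 (-0.78) and Mrpl2 (-0.56). It differed from the Vhl effect for Mrpl39 (0.77), Mrpl42 (0.45) and Mrps15 (0.40). The Vhl effect differed from the Bmal1 effect for Mrpl16 (-0.91), Mrpl37 (-0.73) and Mrpl42 (-0.77).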

How the results depend on the processing

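No named gene changed direction in the comparison that named it. The differences of Mrps23, Mrpl33 and Mrps18c in the Vhl knockout, named for other reasons, turned positive and uncalled without scaling. The counts of called members did turn without scaling: in the Vhl and double knockouts most calls were lower with TMM and higher without it. DESeq2, RLE scaling and TMM without mitochondrial transcripts changed no call among the named genes, 42 results each. No scaling moved most counts of called members. They became 26 in the Bmal1 knockout of batch 1 (median 0.249), 2 on chow and 3, all lower, for diet in controls (median -0.125). In the Vhl knockout 18 were called, 14 higher and 4 lower (median 0.024), where TMM gave 1 higher and 50 lower. In the double knockout 31 were called higher and 3 lower (median 0.202), where TMM gave 4 higher and 27 lower. The contrasts gave 8 for double against Bmal1, 5 for double against Vhl and 16 for Vhl against Bmal1, and the joint fit gave 51. With no filter the counts were 11 in the Bmal1 knockout of batch 2 and 1 for diet in controls (Mrpl34), and the groups alone gave 6 for double against Vhl.

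With replicate numbers as a block, the counts were 3 and 1 in the Bmal1 knockouts of batch 1 and 2, 12 for double against Bmal1, 6 for double against Vhl, 20 for Vhl against Bmal1 and 8 in the joint fit. The block used the animal numbers of the titles, across all lines of a batch. For the Bmal1 knockouts of batch 2 these are 6, 7, 8 and 9. The library names number the same animals 6, 9, 10 and 11, and a block on those was not run. By the titles, only 8 and 9 are also numbers of Bmal1 controls in that batch. The count of 1 there thus rests on few animals compared within a number. By the titles' numbers no pairing was seen: over 25 pairs the correlation of deviations ran from -0.293 to 0.174, and 3 pairs matched their own number best. Low correlations cannot show that the animals were not paired, since a pairing may leave little shared signal.

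Leaving out 1 library gave 3 to 7 called members in the Bmal1 knockout of batch 1, 10 to 18 in batch 2, 0 to 1 for diet in controls, 44 to 51 in the Vhl knockout, 26 to 31 in the double knockout, 20 to 31 for double against Bmal1, 3 to 18 for double against Vhl, 44 to 55 for Vhl against Bmal1 and 18 to 26 in the joint fit. Over the named genes and such fits, 553 outcomes did not change, 14 calls were lost (Mrps25 in 1 fit and Mrpl57 in 1 fit of the Bmal1 knockout of batch 1, Mrpl52 in 6 and Mrps34 in 6 of the double knockout) and 1 was gained (Mrpl34 for diet in controls). Where a count moved, the cause was not tested. Depth limits Mrps18b, Mrpl53 and Mrps36, whose levels rest on few tags.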
